A study of Homo sapiens with 3 samples.

Results

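The complement system is a cascade of plasma proteases and binding proteins that marks and lyses microbes and damaged cells, and the hepatocyte is the main source of most of its plasma components. The classical pathway acts through the proteases C1r and C1s, and the lectin pathway through mannose-binding lectin and its associated proteases. Both pathways cleave C4 and C2 to form an enzyme that cleaves C3. The alternative pathway amplifies C3 cleavage through factors B and D, the terminal components C5 to C9 build the membrane attack complex, and plasma and membrane regulators hold each step in check. The 32 genes described here are these components and regulators, chosen by gene symbol, out of 61533 genes in the tables. C4A and C4B are near-identical copies between which reads cannot be divided with confidence, so their values were summed as C4, which leaves 31 units.

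The RNA came from Hep3B, a human hepatoma line labelled as wild type, in 3 cultures with 1 library each. The normoxia culture had 20% oxygen, the hypoxia culture 1% oxygen, and the oxamate culture 1% oxygen with oxamate sodium, an inhibitor of the lactate dehydrogenase that turns pyruvate into lactate. The design text gives 48 hours for oxamate, and it can be read as covering the other cultures too. The dose of oxamate is not given in the sources used here, and all 3 cultures had the same serum-containing medium. With a single library for each condition, differences could not be checked against the spread of replicate cultures, and no p-values are given.

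The libraries held 24826365 to 27412147 fragments. Levels are given as the deposited FPKM, fragments per kilobase of gene scaled to a library total. This allows genes of different length to be compared as far as the deposited lengths hold. For SERPING1, the deposited length was 7231 bases, against 3603 exonic bases in the GENCODE 29 annotation. Levels, ranks and shares between genes are therefore approximate. The deposited FPKM already carried a factor between libraries: the totals behind the values were 0.938, 1.057 and 1.019 times the fragments in the normoxia, hypoxia and oxamate tables. Changes are ratios of fragments after scaling between libraries. A gene was measured in a comparison if it had at least 50 fragments in the library with more, and was counted as higher or lower where the ratio was at least 2-fold. The range after each ratio is its 95% exact conditional binomial interval, which covers counting error only. The genes used to check low oxygen were higher in hypoxia in 8 of 8 cases, with CA9 going from 173 to 5112 fragments. Of the 10 hepatocyte markers all were measured, and their summed FPKM was 7565, 3816 and 2628 in normoxia, hypoxia and oxamate. Most of this came from ALB, at 5362, 2578 and 1963 FPKM. Of 12 macrophage and blood markers, C1QA, C1QB, C1QC, CD163 and MARCO had 0 fragments in every library, and the summed FPKM of the list was 25.4, 19.4 and 35.2, mostly from LYZ (965, 880 and 1499 fragments). CD14, with 140, 22 and 17 fragments, was lower in hypoxia, and ITGAM, with 9, 58 and 22, was higher in hypoxia and lower with oxamate. Under the minimum, CSF1R had 2, 8 and 22 fragments, PTPRC 0, 0 and 8, CD68 9, 0 and 2, and CLEC4F 8, 7 and 0. The 6 stellate and fibroblast markers summed to 2.09, 2.73 and 0.931 FPKM, with DCN and ACTA2 at 0. PDGFRB (315, 438 and 110 fragments) and COL1A1 (76, 130 and 51) were lower with oxamate than in hypoxia. Under the minimum, COL3A1 (0, 1 and 13) and LRAT (8, 0 and 4) had more fragments with oxamate than in hypoxia. The 5 cholangiocyte markers summed to 499, 325 and 358 FPKM, and of them SOX9 (5265, 3721 and 8089 fragments) was higher with oxamate than in hypoxia, while EPCAM and KRT19 passed the rule in neither step. Of the 32 genes, 15 share some exon bases with another gene in GENCODE 29, and the larger overlaps are given beside the values. Only 8 of the 32 have the same coordinates in GENCODE 29 as deposited, so the overlaps are approximate for the annotation used in counting.

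Most complement transcripts had their lowest level with oxamate, among them C3, CLU and VTN, the 3 highest in normoxia, while a smaller group had its highest level there. C3, C5, C6, C4BPA, C4BPB, CFI, VTN, CLU, C1R, C1S, CFB and C4 were highest in normoxia and lowest with oxamate. MASP1, SERPING1, C7, CD46, CD59 and MASP2 were lowest in normoxia and highest with oxamate. The summed FPKM of all members was 759 in normoxia, 466 in hypoxia and 323 with oxamate. That of all genes was 319059, 245419 and 265422, so the sum of any list or role is to be read beside this shift. CLU alone went from 235 to 40.5 and 34.9 FPKM. In a bulk sample, a change in the make-up of the culture and a change in RNA per cell cannot be told apart.

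**Figure D1:**
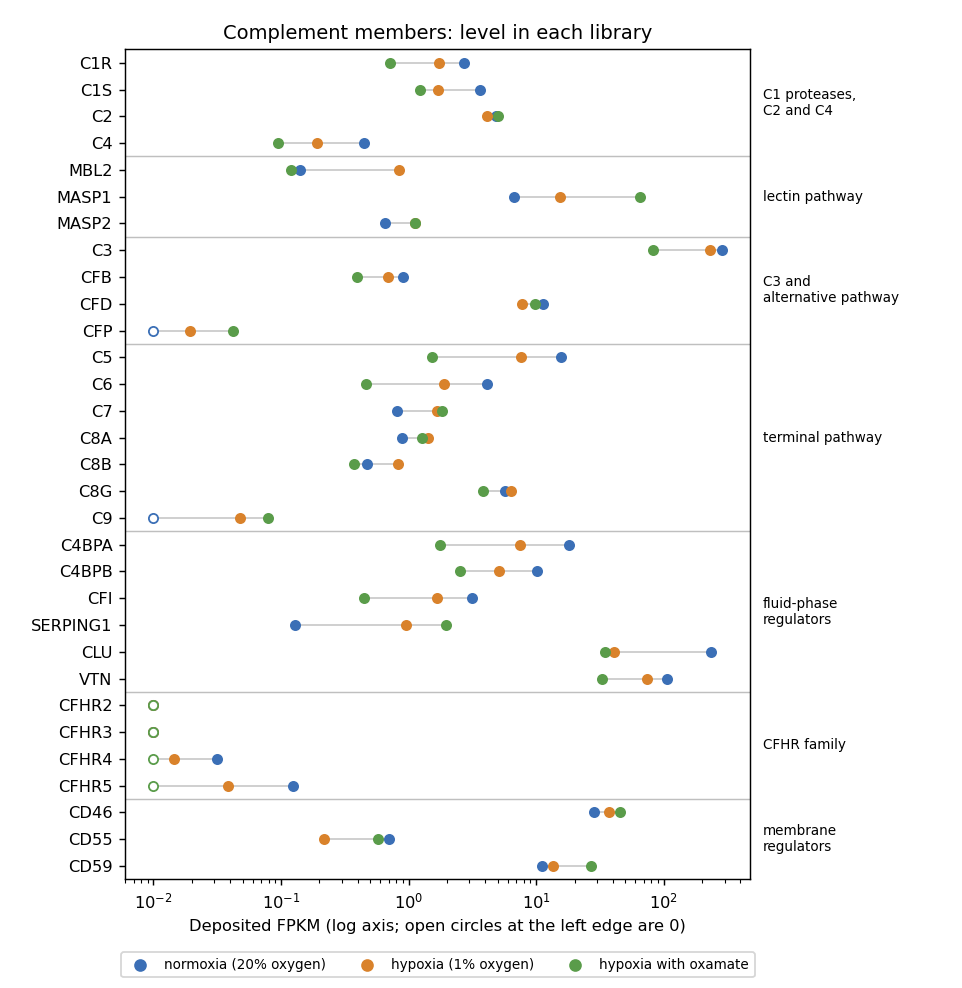
Deposited FPKM of each complement unit (log axis) in the normoxia, hypoxia and oxamate libraries, grouped by role, with 1 point per library and open circles for values of 0. C3 is the highest unit in all 3 libraries, MASP1 moves from 6.75 in normoxia to 65.2 with oxamate, and CFHR2 and CFHR3 are at 0 in all 3.

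Of the 31 units, 25 were measured in at least 1 library. In hypoxia against normoxia, 4 of 25 measured units were higher (16.0%), where 10.8% of all measured genes were, and 7 were lower (28.0%), where 8.07% of all were. In oxamate against hypoxia, 3 of 24 were higher (12.5%) beside 5.92% of all genes, and 10 were lower (41.7%) beside 5.07%. In oxamate against normoxia, 4 of 23 were higher (17.4%) beside 15.4%, and 12 were lower (52.2%) beside 15.3%. The median log2 ratio of the measured units was -0.38 in hypoxia against normoxia, where that of all measured genes was -0.11. It was -0.59 in oxamate against hypoxia, where that of all genes was -0.01. These shares of all genes are also the background for the role groups and other lists below. With so few measured genes in each, small counts are not read as differences from these shares. The 3 comparisons share libraries in pairs and are not independent of each other, and the units were chosen with earlier results of these data known.

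**Figure D2:**
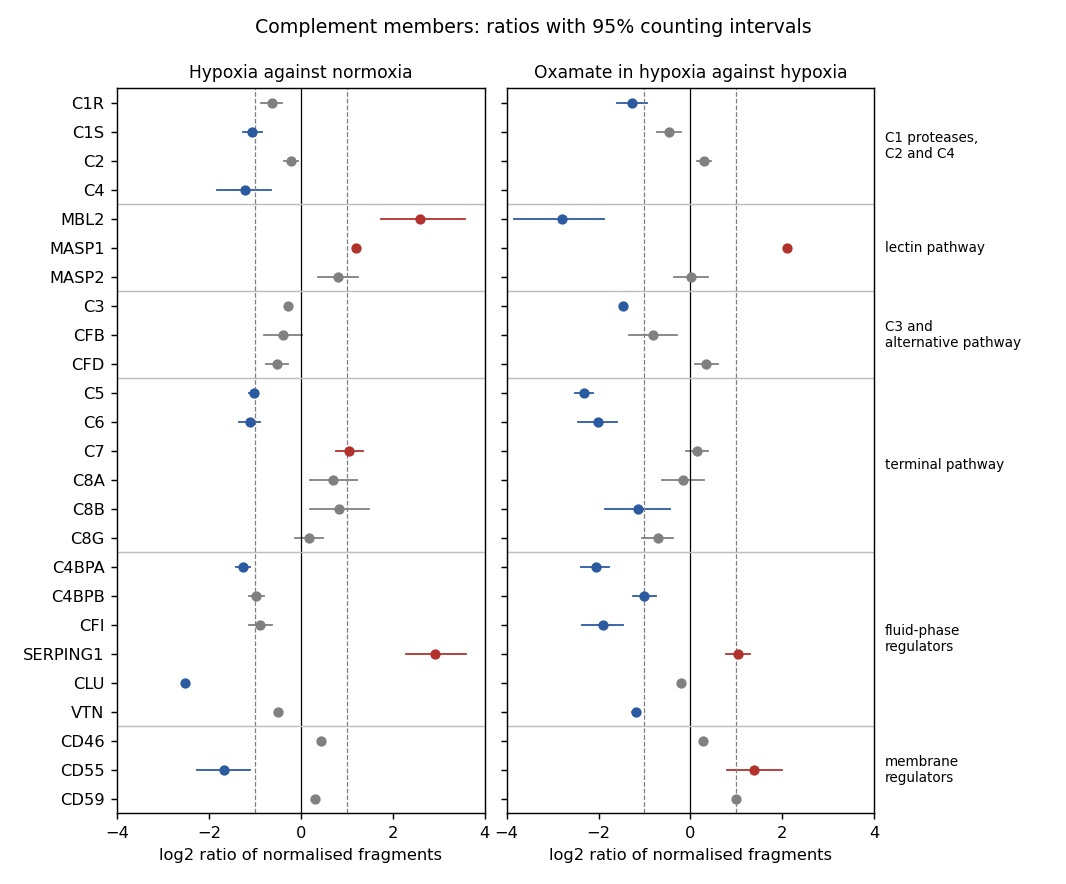
Log2 ratio of normalised fragments in hypoxia against normoxia (left, 25 measured units) and oxamate in hypoxia against hypoxia (right, 24 measured units), with 95% counting intervals as bars and the 2-fold limits as dashed lines; red is higher, blue lower and grey neither. Units under 50 fragments in both libraries of a comparison are left out. MASP1 and SERPING1 are red in both panels, and C5, C6 and C4BPA are blue in both.

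The C1 proteases were highest in normoxia and lowest with oxamate. With C2 and C4, 2 of 4 measured units were lower in hypoxia and 1 of 3 with oxamate against hypoxia, and 0 were higher in either. C1R, the protease that activates C1s, had 403, 277 and 104 fragments in normoxia, hypoxia and oxamate, or 2.70, 1.72 and 0.709 FPKM. It was 1.56-fold lower in hypoxia (1.33 to 1.82), short of the 2-fold rule, and 2.41-fold lower again with oxamate (1.92 to 3.05). C1S, the protease that cleaves C4 and C2, had 592, 304 and 199 fragments, and was 2.08-fold lower in hypoxia (1.81 to 2.40) and 1.38-fold lower with oxamate (1.15 to 1.66). The call for C1S in hypoxia was lost under scaling by total fragments, with a log2 ratio of -0.90. The genes stand 9.18 kb apart on opposite strands of chromosome 12. They had the same level in hypoxia, where the ratio of C1R to C1S in FPKM was 1.00, against 0.749 in normoxia and 0.575 with oxamate. Reads of C1R are uncertain, since 11.4% of its exon bases are shared with C1RL, a C1r-like protease gene that had 1007, 2137 and 1163 fragments. C1S shares 3.54% of its exon bases with EMG1, which had 1839, 1062 and 732 fragments.

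C2 and C4, which together form the classical C3 convertase, differed. C2 had 685, 630 and 698 fragments, or 4.83, 4.11 and 5.00 FPKM, and its ratios stayed within 1.23-fold. C4 was scarce, with 83, 38 and 17 fragments for both copies together, or 0.450, 0.191 and 0.094 FPKM. C4 was 2.34-fold lower in hypoxia (1.57 to 3.53) and 4.72-fold lower with oxamate than in normoxia (2.78 to 8.49), and in oxamate against hypoxia it was under the minimum. The hypoxia call for C4 was lost with the deposited FPKM and a pseudocount of 0.1, at log2 -0.92. The FPKM of C2 was thus 10.7 times that of C4 in normoxia, 21.5 times in hypoxia and 53.3 times with oxamate. The level of C4 is uncertain, since 11.4% of the exon bases of C4A and 7.25% of those of C4B are shared. For C4A, 4.21% are shared with STK19, which had 275, 379 and 327 fragments. C2 and the neighbouring CFB overlap by 23 bases on chromosome 6, and an annotated readthrough gene that spans both shares 32.9% of the exon bases of C2 and 45.0% of those of CFB. That readthrough gene is listed at 0 fragments in all 3 libraries. How the counting treated fragments in shared exons is not given in the sources used here, so the levels of C2 and CFB are uncertain.

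In the lectin pathway 2 of 3 units were higher in hypoxia, MBL2 and MASP1, and with oxamate MASP1 was higher again and MBL2 lower. The oxamate step of MASP1 was the largest upward ratio of any measured member in that comparison. MASP1 (ENSG00000127241_18, chromosome 3 from 187217282 to 187291980, minus strand, hg38) encodes the protease that activates MASP-2 in this pathway, and by alternative splicing the related products MASP-3 and MAp44. Its fragments numbered 2277, 5600 and 21641 in the normoxia, hypoxia and oxamate libraries, or 6.75, 15.3 and 65.2 FPKM. The oxamate library stood far above the others. MASP1 was 2.30-fold higher in hypoxia (2.19 to 2.41), 4.28-fold higher with oxamate than in hypoxia (4.15 to 4.40) and 9.83-fold higher with oxamate than in normoxia (9.41 to 10.3). The hypoxia call was lost when the trend of ratios along gene length was removed (log2 0.95), while in oxamate against hypoxia the log2 ratio lay between 2.03 and 2.10 under every scaling and trend setting run. The tables hold 1 value per gene, so which of the splice products changed cannot be told apart here.

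Among the units, MASP1 moved from rank 10 by FPKM in normoxia to rank 5 in hypoxia and rank 2 with oxamate, behind C3. The FPKM of MASP1 was 0.0236 times that of C3 in normoxia, 0.0663 times in hypoxia and 0.784 times with oxamate. MASP2, the gene of the protease that cleaves C4 and C2 in the lectin pathway, did not follow: it had 71, 133 and 121 fragments. MASP2 was 1.75-fold higher in hypoxia (1.30 to 2.37) and stood at 1.01-fold with oxamate against hypoxia (0.780 to 1.30). The ratio of MASP1 to MASP2 in FPKM was 10.4, 13.7 and 58.0 in the 3 libraries.

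MBL2, which encodes mannose-binding lectin, the recognition protein of the pathway, was high in hypoxia alone. It had 13, 84 and 11 fragments, or 0.140, 0.835 and 0.120 FPKM. MBL2 was 6.04-fold higher in hypoxia than in normoxia (3.35 to 11.8) and 6.90-fold lower with oxamate than in hypoxia (3.67 to 14.4), so that the normoxia and oxamate libraries lay close together. These ratios rest on few fragments, and at a minimum of 200 fragments MBL2 was not measured.

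The alternative pathway was dominated by C3. C3 (ENSG00000125730_17, chromosome 19 from 6677704 to 6730562, minus strand), whose product is the central protein cleaved by all 3 pathways, had 61084, 53366 and 17448 fragments, or 286, 231 and 83.2 FPKM. It was 1.22-fold lower in hypoxia (1.21 to 1.24), and 2.76-fold lower with oxamate than in hypoxia (2.72 to 2.81). The difference in C3 therefore lay mainly in the oxamate step. CFB, for factor B, the protease of the alternative convertase, had 111, 91 and 47 fragments, and was 2.28-fold lower with oxamate than in normoxia (1.61 to 3.29). In neither single step did CFB reach 2-fold. CFD, for factor D, which cleaves factor B, had 353, 263 and 303 fragments and stayed within 1.44-fold. CFP, for properdin, which stabilises the convertase, had 0, 3 and 6 fragments.

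**Figure D3:**
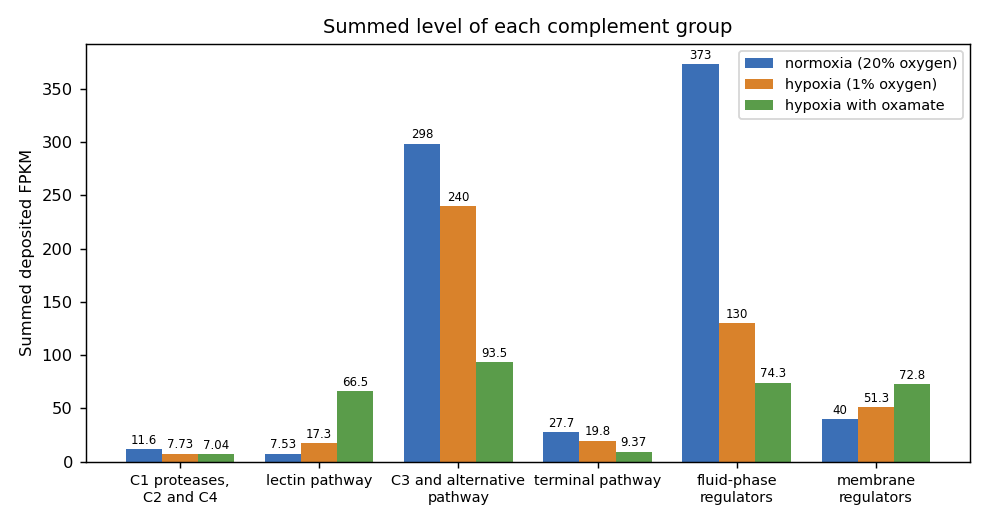
Summed deposited FPKM of the members of each role (linear axis from 0) in the normoxia, hypoxia and oxamate libraries, 1 bar per library, without the CFHR family. The fluid-phase regulators go from 373 to 130 and 74.3, C3 and the alternative pathway from 298 to 240 and 93.5, and the lectin pathway from 7.53 to 17.3 and 66.5. The summed FPKM of all genes also differed, at 319059, 245419 and 265422.

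The terminal components differed in direction in hypoxia, with 1 of 6 measured units higher and 2 lower; with oxamate against hypoxia 0 were higher and 3 lower. C5, the precursor of the chemoattractant C5a and of the first part of the membrane attack complex, had 2632, 1376 and 250 fragments, or 15.7, 7.58 and 1.51 FPKM. C5 was 2.05-fold lower in hypoxia (1.92 to 2.19), 4.98-fold lower with oxamate than in hypoxia (4.34 to 5.72) and 10.2-fold lower than in normoxia (8.94 to 11.6). C6 followed it with 517, 255 and 57 fragments, 2.17-fold lower in hypoxia (1.86 to 2.53) and 4.04-fold lower with oxamate (3.02 to 5.49). Both hypoxia calls were lost under scaling by total fragments, with log2 ratios of -0.88 for C5 and -0.96 for C6, whereas both oxamate calls held under every scaling.

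C7, which binds next and anchors the complex to the membrane, went the other way. Its fragments numbered 139, 308 and 308, a 2.07-fold higher value in hypoxia (1.69 to 2.55), and it stood 1.11-fold higher with oxamate than in hypoxia (0.942 to 1.30). The hypoxia call for C7 was lost with the deposited FPKM and a pseudocount of 0.1, at log2 0.95. C6 and C7 lie on chromosome 5, 157 kb apart and on opposite strands. The FPKM of C6 stood above that of C7 in normoxia (4.14 and 0.809) and below it with oxamate (0.464 and 1.82).

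The chains of C8 differed in level. C8A, the chain that inserts into the membrane, had 54, 94 and 76 fragments, or 0.887, 1.43 and 1.27 FPKM. C8B had 33, 63 and 26 fragments, or 0.470, 0.829 and 0.376 FPKM. C8G, a lipocalin-type chain with a short gene, had 169, 203 and 112 fragments, or 5.70, 6.34 and 3.84 FPKM. Per length C8G thus stood above C6 and C7 in each library, and with oxamate it was the highest of the terminal components. In hypoxia none of them passed the rule, with ratios of 1.63 for C8A (1.15 to 2.32), 1.78 for C8B (1.15 to 2.81) and 1.12 for C8G (0.911 to 1.39). With oxamate C8B was 2.19-fold lower than in hypoxia (1.37 to 3.60), a call that was lost with a pseudocount of 5 and with the deposited FPKM, and C8G stood at 1.64-fold lower (1.29 to 2.08). C9, the pore-forming component that completes the complex, had 0, 4 and 6 fragments.

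Of the 6 fluid-phase regulators, 1 was higher and 2 lower in hypoxia, and 1 was higher and 4 lower with oxamate against hypoxia. CLU had the largest downward ratio of any measured member in hypoxia. CLU, for clusterin, a chaperone that also binds the forming attack complex, lies on chromosome 8 from 27596917 to 27614700. It had 38061, 7078 and 5554 fragments, or 235, 40.5 and 34.9 FPKM. The normoxia library stood far above the others: CLU was 5.75-fold lower in hypoxia (5.61 to 5.90) and only 1.15-fold lower again with oxamate (1.11 to 1.19). VTN, for vitronectin, which binds the same complex and is also an adhesion protein, showed the reverse order of steps. It had 5213, 3925 and 1570 fragments, and was 1.42-fold lower in hypoxia (1.36 to 1.48) and 2.26-fold lower with oxamate than in hypoxia (2.13 to 2.40). A gene listed at 0 fragments shares 13.6% of the exon bases of VTN.

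C4BPA and C4BPB encode the chains of C4b-binding protein, a cofactor for C4b breakdown. C4BPA had 1156, 514 and 111 fragments, or 18.2, 7.48 and 1.78 FPKM, and was 2.41-fold lower in hypoxia (2.17 to 2.68) and 4.19-fold lower with oxamate (3.40 to 5.19). C4BPB had 835, 456 and 206 fragments and was 1.96-fold lower in hypoxia (1.75 to 2.20) and at a ratio of 0.4998 with oxamate against hypoxia (0.422 to 0.590), counted as lower. Both ratios for C4BPB lay at the limit of the rule, and the oxamate call was lost with the deposited FPKM, with a pseudocount of 5 and with the length trend removed. The genes lie 4.24 kb apart on the same strand of chromosome 1, and the α-chain gene was lower by more: the FPKM ratio of C4BPA to C4BPB was 1.79 in normoxia, 1.46 in hypoxia and 0.698 with oxamate. CFI, for factor I, the protease that cleaves C3b and C4b, had 379, 220 and 53 fragments. It was 1.84-fold lower in hypoxia (1.56 to 2.19) and 3.75-fold lower with oxamate (2.77 to 5.17). An annotated readthrough gene listed at 0 fragments shares 32.0% of the exon bases of CFI, which makes the level of CFI uncertain.

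SERPING1 (ENSG00000149131_17, chromosome 11 from 57597387 to 57619171, plus strand) encodes the C1 inhibitor, the serpin that blocks C1r, C1s and the MASP proteases. Alone among the fluid-phase regulators it was higher in both steps, with 24, 193 and 358 fragments, or 0.129, 0.960 and 1.96 FPKM. SERPING1 was 7.52-fold higher in hypoxia (4.90 to 12.0), 2.05-fold higher with oxamate than in hypoxia (1.72 to 2.46) and 15.4-fold higher than in normoxia (10.2 to 24.4). Its hypoxia call rests on 24 fragments in normoxia and was lost at a minimum of 200 fragments. Its oxamate step passed the rule narrowly and was lost under scaling by total fragments (log2 0.97). In each library its level stayed below 2 FPKM, far under those of CLU and VTN. Endothelial cells also make the C1 inhibitor, and the summed FPKM of 7 endothelial markers was 0.216, 1.10 and 2.77. Of these, PECAM1 had 33, 230 and 499 fragments, KDR and CLEC4G had 0 in every library, CDH5 had 2, 0 and 0, VWF had 0, 1 and 3, LYVE1 had 0, 0 and 14, and STAB2 had 9, 6 and 13. PECAM1 alone reached the minimum and was higher in both steps, as SERPING1 was. The other endothelial markers had too few fragments for a direction to be read. The part of endothelial markers in the SERPING1 result was not tested.

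The factor H-related genes were at or near the limit of detection. CFHR2 and CFHR3 had 0 fragments in every library, which allows up to 0.116 CPM (fragments scaled to the library size times its scaling factor) in normoxia, 0.108 in hypoxia and 0.120 with oxamate. CFHR4 had 2, 1 and 0 fragments and CFHR5 had 9, 3 and 0. Reads of this family are uncertain, because its members are close copies of each other.

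The membrane regulators, which protect the cell itself, were 3 genes, of which 1 was lower in hypoxia and 1 higher with oxamate against hypoxia, in both cases CD55. CD46, a cofactor for factor I on the cell surface, had 6319, 9102 and 10022 fragments, or 28.2, 37.6 and 45.5 FPKM. It was 1.35-fold higher in hypoxia (1.30 to 1.39) and 1.64-fold higher with oxamate than in normoxia (1.59 to 1.69). CD59, which blocks C9 insertion, had 3022, 3978 and 7143 fragments. CD59 was 1.23-fold higher in hypoxia (1.17 to 1.29), and at 1.99-fold higher with oxamate than in hypoxia (1.91 to 2.07) it was just short of the rule. Against normoxia, CD59 with oxamate was 2.44-fold higher (2.34 to 2.55).

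CD55, the decay-accelerating factor that takes C3 convertases apart, had its own order. It had 104, 35 and 83 fragments, or 0.703, 0.219 and 0.571 FPKM, and the hypoxia library was the lowest. CD55 was 3.18-fold lower in hypoxia (2.15 to 4.81) and 2.62-fold higher with oxamate than in hypoxia (1.75 to 4.01), close to normoxia again. CD55 and CD46 lie on the same strand of chromosome 1, 365 kb apart, and C4BPA lies 177 kb before CD55. In hypoxia C4BPA and CD55 were lower, while CD46 had a ratio above 1 without passing the rule.

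With these changes the make-up of the complement transcripts differed between the libraries. C3 and CLU together with VTN made up most of the summed FPKM in normoxia, at 37.7%, 31.0% and 14.0%. In hypoxia C3 held 49.7%, VTN 15.9%, CLU 8.69% and CD46 8.06%. With oxamate C3 held 25.7%, MASP1 20.2%, CD46 14.1%, CLU 10.8%, VTN 10.1% and CD59 8.27%. The FPKM of C3 was 10.2 times that of CD46 in normoxia, 6.16 times in hypoxia and 1.83 times with oxamate.

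**Figure D4:**
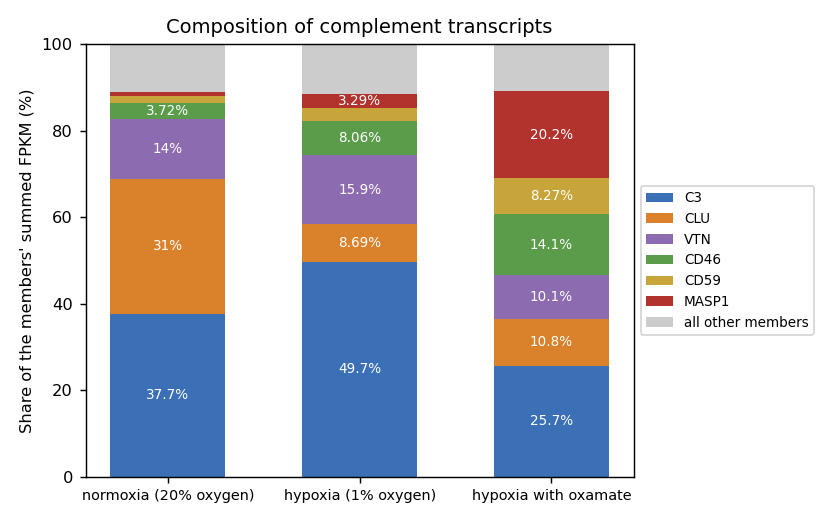
Share of the members' summed FPKM (percent) taken by C3, CLU, VTN, CD46, CD59, MASP1 and all other members, with 1 stacked bar per library. MASP1 goes from 0.889% in normoxia to 3.29% in hypoxia and 20.2% with oxamate, and CLU from 31.0% to 8.69% and 10.8%.

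Promoter sequence was compared for the members where the RefSeq start (GRCh38.p14) lay within 100 bases of the deposited gene start. The table held 21 of the 32 genes, and 13 of the 21 met this limit. Shown here are the 250 bases before the start of the members with the largest calls either way among these 13: MBL2 and C7 (higher in hypoxia), and MBL2 again and C4BPA (lower with oxamate). They are written 5′ to 3′ on the gene's strand, and capitals mark matches to any of the 7 motifs searched, on either strand.
MBL2, chr10:52772785-52773034, minus strand: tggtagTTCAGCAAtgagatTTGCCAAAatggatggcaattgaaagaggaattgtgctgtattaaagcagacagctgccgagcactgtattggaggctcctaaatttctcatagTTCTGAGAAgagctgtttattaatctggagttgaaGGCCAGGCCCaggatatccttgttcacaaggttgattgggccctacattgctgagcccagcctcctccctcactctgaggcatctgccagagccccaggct
C7, chr5:40909247-40909496, plus strand: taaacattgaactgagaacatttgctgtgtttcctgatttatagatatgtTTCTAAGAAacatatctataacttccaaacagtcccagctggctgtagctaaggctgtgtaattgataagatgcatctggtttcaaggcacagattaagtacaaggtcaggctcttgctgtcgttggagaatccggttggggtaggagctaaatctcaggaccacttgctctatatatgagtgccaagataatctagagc
C4BPA, chr1:207103983-207104232, plus strand: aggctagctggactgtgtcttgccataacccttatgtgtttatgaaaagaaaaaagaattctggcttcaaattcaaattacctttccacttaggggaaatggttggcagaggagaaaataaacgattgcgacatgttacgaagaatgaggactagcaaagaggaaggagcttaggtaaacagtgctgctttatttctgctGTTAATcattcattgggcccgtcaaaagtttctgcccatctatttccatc

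The MBL2 and C7 windows each hold a match to TTCNNNGAA, the pattern of STAT sites, which starts 136 bases before the start of MBL2 and 200 before that of C7. In the windows of 250 bases before to 50 after the start, this pattern occurred in 4 of the 13 members (MBL2, MASP2, C7 and CD59) and in 7.88% of all 27305 promoters. MBL2 also holds 2 matches to TTGCNNAA, the C/EBP pattern, found in 3 of the 13 (C1R, MBL2 and C6) and 10.6% of all, and 1 to the NF-kB pattern, found in 8 of the 13 and 58.0% of all. C4BPA holds GTTAAT, part of the HNF1 site, as does CFI, against 6.89% of all. The hypoxia response element cores ACGTG (C2) and GCGTG (CD46) were each found in 1 of the 13, against 21.6% and 36.3% of all, and the interferon response pattern in 0 of the 13 against 3.65%. These are matches of letters and were not linked to the ratios by any test.

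Other genes of the pathway gave further values. Of 27 genes in 4 lists, 9 were measured in hypoxia against normoxia: 2 of 6 for C1q and its receptors, 1 of 6 for lectin recognition, 1 of 9 for receptors, and 5 of 6 for other proteases and inhibitors. Of these 9, 3 were higher and 3 lower. A2M, for α2-macroglobulin, a plasma protease inhibitor related to C3, went from 2461 to 14470 and 18095 fragments, a 5.49-fold higher value in hypoxia (5.26 to 5.74). CPN1, for the carboxypeptidase that inactivates C3a and C5a, was 3.58-fold lower in hypoxia (2.94 to 4.40) and 3.24-fold lower again with oxamate (2.22 to 4.83). CPB2, a carboxypeptidase that also inactivates C5a, was 2.73-fold lower (2.35 to 3.18) and 3.63-fold lower (2.73 to 4.89). COLEC12, a collectin scavenger receptor, had 6, 56 and 148 fragments and was higher in both steps.

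Genes of signals and factors known to act on complement genes were listed beside them. Of 14 measured genes of IL-6, interferon and NF-kB signalling, 0 were higher and 2 lower in hypoxia, and 3 were higher and 0 lower with oxamate. IL6R, the IL-6 receptor, had 818, 165 and 304 fragments and was 5.30-fold lower in hypoxia (4.48 to 6.31), and STAT3 stood at 1.19-fold higher (1.14 to 1.24). Of 7 hepatocyte transcription factors, 2 were lower in hypoxia and 1 with oxamate, with 0 higher in either step. PPARA had the highest ratio in hypoxia, at 1.74 (1.60 to 1.90), and FOXA2 with oxamate against hypoxia, at 1.46 (1.36 to 1.56). With oxamate against normoxia PPARA was 2.49-fold higher (2.29 to 2.71). CEBPA, for C/EBPα, had 6073, 2981 and 496 fragments, 2.18-fold lower in hypoxia (2.09 to 2.28) and 5.43-fold lower with oxamate (4.94 to 5.99), while HNF4A stood at a ratio of 0.669 in hypoxia (0.643 to 0.696) and 0.922 with oxamate (0.881 to 0.964). Their part in the complement values was not tested.

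Acute phase proteins from the same cells gave a like direction. Of 15 on the list, 5 of 6 measured were lower in hypoxia and 5 of 5 with oxamate, with median log2 ratios of -1.94 and -2.23. Of all measured genes, 8.07% were lower in hypoxia and 5.07% with oxamate against hypoxia. ORM1 was 7.07-fold lower (6.39 to 7.85) and 5.39-fold lower (4.19 to 7.01). Of the 10 hepatocyte markers, 6 were lower in hypoxia and 5 with oxamate, with 0 higher in either. MASP1 and SERPING1, the only members counted as higher in both steps, thus stood opposite in direction to these lists. C7, CD46, CD59 and MASP2 also had ratios above 1 in both steps, without passing the rule in both. The difference from the lists cannot be tested with 1 library per condition.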

How the data were processed

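Messenger RNA from 3 Hep3B cultures was sequenced, 1 library for each condition. The authors deposited 1 table per library with FPKM per gene; the unit was taken from the values, since the file headers name only the sample. The gene length in bases is as deposited, per the file headers. Per the submitters' processing notes, the build was hg38 and the tools included edgeR 3.22.5, featureCounts 1.5.0-p3, HISAT2 2.0.5 and StringTie 1.3.3b. Their roles, the strand setting and the treatment of shared exons: not given in the sources used here. FPKM times gene length was a whole multiple of 1 constant per library (100% of values above 0 within 0.01), and these multiples were used as fragments. Genes with at least 10 fragments over all libraries (21987) set the scaling by trimmed mean of M values (trimming 30% and 5%; factors 0.943, 1.05 and 1.01), in Python 3.11.15 with numpy 2.4.6, pandas 2.3.3 and scipy 1.17.1. Log2 ratios carry a prior of 0.5 fragments. A count of 0 was read as up to 3 fragments.

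The procedure was tested on simulated data. Exon overlap came from GENCODE 29 and promoters from RefSeq. Named genes were all members and, per other list, genes at the ends of the ratios, besides 5 named regulators; not all are printed, and some marker genes were named after their values were seen. Members and lists were chosen with earlier results of these data known. Printed promoters were restricted, after the data were seen, to starts near the deposited gene start, and protein sequences were not used here. Alternatives were other scalings, pseudocounts, minimums, size rules, a length trend and leaving out members that share exons.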

Additional observations from a re-analysis of the deposited data

How the results depend on the processing

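With 1 library per condition, differences between cultures cannot be separated from differences between conditions. C9, CFP and the CFHR genes had too few fragments to be measured, and low counts limit C4, C8B, MBL2, CD55 and SERPING1. Whether this reflects sequencing depth or low or absent expression was not tested. Of 432 log2 ratios of single units recomputed under other scalings, pseudocounts or trends, 0 changed sign among called units, and 51 moved outside their counting interval. In hypoxia against normoxia, scaling by total fragments shifted the median log2 ratio of all genes by 0.16 and left 4 units lower instead of 7 (C1S, C5 and C6 were lost), and the upper quartile also left 4. Counting only whole intervals past 2-fold left 3 lower, and leaving out members that share exon bases left 4. The 4 higher units became 2 at a minimum of 200 fragments and 7 at a ratio of 1.5. In oxamate against hypoxia, the 3 higher units became 1 for whole intervals (MASP1), and the 10 lower became 6 without members that share exon bases. In oxamate against normoxia, the same omission left 2 higher and 5 lower. The cause was not tested, other than that the stricter settings test fewer units or ask for more. Summed FPKM of the terminal pathway had a hypoxia to normoxia ratio of 0.714, while the median log2 ratio of its members was 0.43; C5 held 15.7 of the 27.7 FPKM in normoxia. No paired analysis was possible because each condition has 1 library.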
